A study of Mus musculus with 6 samples.

Results

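The 10 genes described here belong to the machinery that takes a cell from G1 into S phase, measured in mouse bone marrow-derived macrophages. They are the D-type cyclins Ccnd1, Ccnd2 and Ccnd3, the E-type cyclins Ccne1 and Ccne2, the cyclin-dependent kinases Cdk2, Cdk4 and Cdk6, and the pocket proteins Rb1 and Rbl1. Each was chosen by its symbol, and each symbol matched 1 Ensembl identifier among the 55401 genes of the deposited table. All 10 passed the filter on low counts, so none is left out. The cells were primary macrophages of the C57BL/6 strain. In 3 libraries they had been transfected with a negative-control siRNA (siNC) and in 3 with an siRNA against Piezo1 (siPiezo1), which encodes a mechanically gated cation channel. Both groups were exposed to mechanical stretch for 4 h, so the comparison is between siRNAs in stretched cells, with no unstretched cells analysed here. The series title names a PI3K-AKT-Ccnd1 axis in macrophage proliferation, and the members put Ccnd1 beside its paralogues and partners.

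D-type cyclins are made in response to growth factors and adhesion. They bind CDK4 or CDK6, and these kinases phosphorylate the pocket proteins, which otherwise hold E2F transcription factors in check. Freed E2F drives the genes of S phase and the E-type cyclins, which activate CDK2 and phosphorylate the pocket proteins further. In macrophages the growth factor M-CSF is a main inducer of D-type cyclins.

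Library totals ran from 61086684 to 75052745 estimated counts. Low values piled up at 4, 8, 12, 16, 19, 23 and 27. A weaker peak lay at 6, seen 1275 times, against a mean of 855.5 for its neighbours. Apart from 6 the steps were about 4. On that ground 1 fragment was taken as about 4 counts, and the totals as about 15.3 M to 18.8 M fragments. Levels are given as CPM, the counts of a gene as a part of its library's total, scaled between libraries with TMM factors. Piezo1, the siRNA target, stood at 180, 285 and 189 CPM in siNC 1, 2 and 3 and at 111, 109 and 113 CPM in siPiezo1 1, 2 and 3. Its log2 fold change was -0.97 ± 0.18 (SE, edgeR quasi-likelihood, Benjamini-Hochberg adjusted p = 0.744), and without siNC 2 it fell by 0.73 ± 0.06 on the log2 scale (adjusted p = 0.00245 in the same edgeR test). Nothing in the labels says that the libraries came from separate animals or cultures, so each p-value reflects the spread among these 6 libraries, which could be technical. One control, siNC 2, stood apart. Its 12 neutrophil and granulocyte precursor markers summed to 3310 CPM, against 601 to 679 CPM in the other 5 libraries, although Ly6g and Retnlg stayed under 1 CPM throughout. Its 20 E2F target genes of S phase summed to 1252 CPM, against 627 and 645 CPM in siNC 1 and 3 and 703 to 911 CPM in siPiezo1. The 10 macrophage markers summed to 28230 CPM in siNC 2 and to between 34620 and 37560 CPM elsewhere, most of it Lyz2, at 20620 to 26820 CPM over the 6 libraries. Some macrophage markers also differed between the groups in the fit without siNC 2. In it 3 of the 10 were called lower with siPiezo1, against 0.45% of all genes. They were Adgre1 (log2 fold change -0.31), Fcgr1 (-0.46) and Aif1 (-0.52, edgeR quasi-likelihood, Benjamini-Hochberg adjusted p = 0.0376, 0.0283 and 0.0291). Another 3 markers were above 0 and not called, Lyz2 (0.09), Cd14 (0.24) and Itgam (0.47). Lyz2 was higher in every siPiezo1 library than in any control. The fit without siNC 2 is also the one in which Ccnd1 and Rbl1 were called. Markers of dendritic cells summed to at most 13.3 CPM, of fibroblasts and osteoblasts to at most 23.5, of lymphocytes to at most 16.7 and of erythroid cells to at most 10.1. Cd3e, Cd3d, Cd8a, Siglech and Bglap were at 0 in every library. The part of these differences in the results was not tested, and fold changes, shares of D-type cyclins and ratios below are given with all 6 libraries and mostly also without siNC 2. In bulk RNA fewer cells of a type and less RNA per cell cannot be told apart.

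With all 6 libraries Ccnd1 was the member that separated the groups, at 40.9% of its mean control level, and the other 9 overlapped. By edgeR quasi-likelihood, with Benjamini-Hochberg adjustment over 15959 genes, 0 of the 10 members passed the threshold of 0.05, against 0.00627% of all genes. At an unadjusted p under 0.05 there was 1 member, Ccnd1, where 4.93% of all genes reached that level. DESeq2 called 1 member, Ccnd1, lower and 0 higher, where it called 0.551% of all genes, 0.263% lower and 0.288% higher (6.32% at an unadjusted p under 0.05). The limma-voom test called 0 members. The groups did not overlap for 1 of 10 members, against 11.9% of all genes (5.65% with siPiezo1 lower), a share no higher than the background. The median log2 fold change of the 10 members was -0.02, and that of all genes was -0.01. Of the 10 members 8 were highest in siNC 2, where 28.8% of all genes were.

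**Figure D1:**
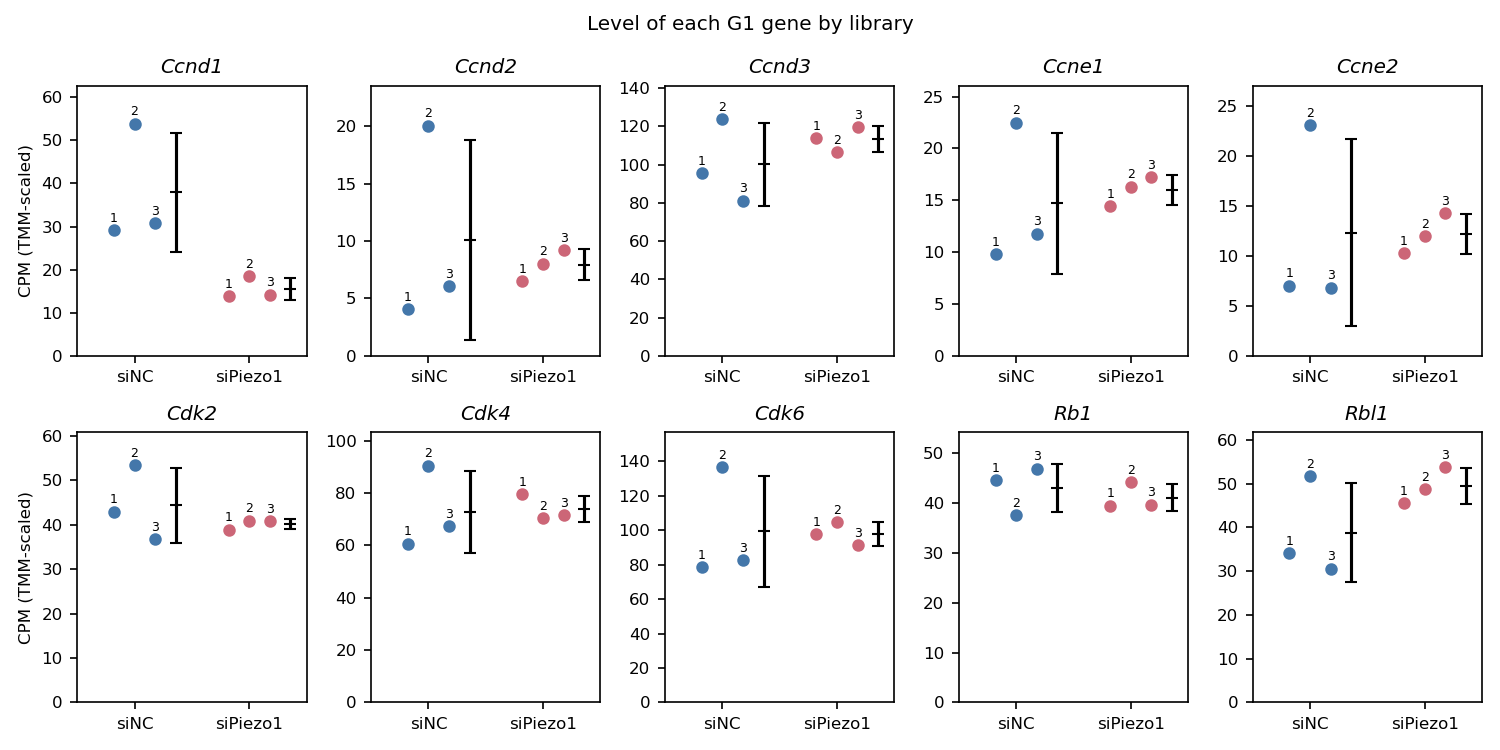
Level of each of the 10 genes in CPM (vertical axis, starting at 0) in the 3 siNC and 3 siPiezo1 libraries, numbered by replicate, with the group mean and SD as a black bar. Ccnd1 is the panel in which no siPiezo1 point reaches a siNC point, and in 8 panels the highest point is siNC 2.

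Among the D-type cyclins, Ccnd1 (ENSMUSG00000070348), which encodes cyclin D1, was lower in every siPiezo1 library than in any control. It stood at 29.1, 53.8 and 30.8 CPM across the controls, against 13.9, 18.5 and 14.2 CPM with siPiezo1. The lowest control lay above the highest siPiezo1 library, and the group means were 37.9 ± 13.8 and 15.5 ± 2.56 CPM (SD, n = 3). The log2 fold change was -1.29 ± 0.27 (SE, edgeR quasi-likelihood, Benjamini-Hochberg adjusted p = 0.744), and an exact two-sided permutation test gave p = 0.1, the smallest that 3 against 3 libraries allow. Without siNC 2 the log2 fold change was -0.95 ± 0.14 (SE) and the adjusted p in the same edgeR test was 0.0270, so that Ccnd1 fell in that fit. Over all alternatives its adjusted p ran from 0.00269, in DESeq2, to 0.9999, when a siPiezo1 library was left out.

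Ccnd2 (ENSMUSG00000000184), which encodes cyclin D2, was the least abundant member. Its level was 4.07, 20.1 and 6.09 CPM across the controls, against 6.51, 8.05 and 9.22 CPM with siPiezo1. The siNC 2 value was 3.95 times the mean of the other 2 controls, the widest gap of any member, and the 3 siPiezo1 libraries lay between siNC 2 and the other controls. The direction of its fold change therefore rests on that library, with a log2 fold change of -0.35 ± 0.57 with all 6 libraries and 0.64 ± 0.25 without siNC 2 (SE). Its counts stood for about 62 to 379 fragments a library, the thinnest coverage among the members. Ccnd3 (ENSMUSG00000034165), which encodes cyclin D3, was the most abundant D-type cyclin. It stood at 95.5, 124 and 81.2 CPM across the controls, against 114, 107 and 120 CPM with siPiezo1. Here too each siPiezo1 library was above siNC 1 and 3 and below siNC 2. The log2 fold change was 0.18 ± 0.16 with all libraries and 0.36 ± 0.09 without siNC 2 (SE), and neither passed (edgeR quasi-likelihood, Benjamini-Hochberg adjusted p = 0.991 and 0.101).

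Among the D-type cyclins the share of Ccnd1 was smaller and that of Ccnd3 larger in siPiezo1, and neither share overlapped between the groups. The level of Ccnd3 itself did overlap. Shares add up to the whole, so a smaller share of Ccnd1 raises the share of the others. To compare levels between genes, counts were divided by the kilobases of annotated exon. On this scale Ccnd1 made up 35.3%, 41.3% and 39.8% of the D-cyclin transcripts in siNC and 17.7%, 23.2% and 17.1% in siPiezo1. No siPiezo1 library came near a control, and siNC 2 lay with the other controls. The means were 38.8 ± 3.12% and 19.3 ± 3.34% (SD, n = 3), a difference of -19.5 percentage points, or -18.2 without siNC 2 (all 6 libraries, exact two-sided permutation test, p = 0.1, the smallest possible). Ccnd3 made up 62.2%, 51.0% and 56.3% in siNC and 78.1%, 71.8% and 77.3% in siPiezo1, and Ccnd2 between 2.47% and 7.70% in all libraries. The summed D-cyclin level was 17.5, 27.7 and 16.4 CPM per kb in siNC and 16.6, 16.9 and 17.6 CPM per kb in siPiezo1. Apart from siNC 2 the sum on this scale lay between 16.4 and 17.6 CPM per kb in both groups. The share of Ccnd1 within it did not overlap between them. The sum depends on the lengths used. Ccnd3 has 8.78 kb of annotated exon but 3858 bases in its longest transcript, and Ccnd1 has 4.71 kb and 3740 bases. A sum over the longest transcripts was not computed, so an equal total is not established.

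**Figure D2:**
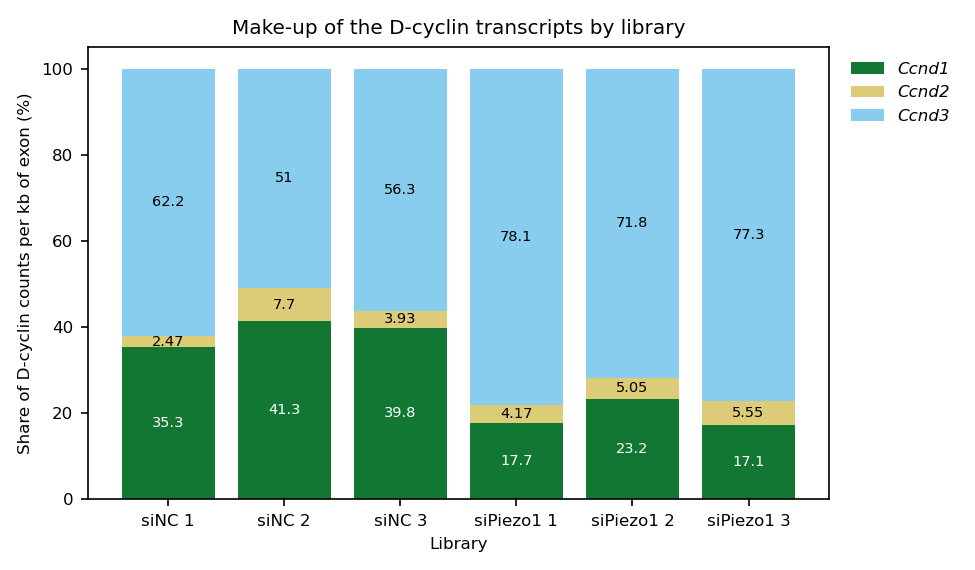
Share of Ccnd1, Ccnd2 and Ccnd3 in the summed D-cyclin counts per kb of exon (vertical axis, percent) in each library (horizontal axis), with each share printed in its bar. The Ccnd1 share is 35.3% to 41.3% in the siNC libraries and 17.1% to 23.2% in the siPiezo1 libraries.

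A ratio of 2 paralogues within a library does not depend on how libraries are scaled, so 6 pairs were compared in this way. The ratio of Ccnd1 to Ccnd3 counts was 0.305, 0.435 and 0.380 in siNC and 0.122, 0.173 and 0.119 in siPiezo1. On the log2 scale the means were -1.44 ± 0.26 and -2.88 ± 0.30 (SD, n = 3), a difference of -1.44. The difference was larger than the SD of either group, and without siNC 2 it was -1.32. The ratio of Ccnd1 to Ccnd2 counts was 7.16, 2.69 and 5.06 in siNC and 2.13, 2.30 and 1.54 in siPiezo1. Its log2 means differed by -1.23, with siNC 2 the control nearest to the siPiezo1 libraries, and by -1.62 without that library. For both pairs the groups did not overlap (exact two-sided permutation test, p = 0.1 each, the smallest possible, and 0.3 after Benjamini-Hochberg adjustment over the 6 pairs). For Ccnd2 to Ccnd3 the log2 ratio was -3.64 ± 0.97 in siNC and -3.85 ± 0.24 in siPiezo1 (SD, n = 3; exact permutation p = 0.9), and the groups overlapped. The ratio of Ccnd1 to each of its paralogues was thus lower in every siPiezo1 library than in any control. The ratio of Ccnd2 to Ccnd3 did not differ beyond the spread between libraries. Both Ccnd1 ratios and its share hold the same Ccnd1 counts, so they are not separate from its lower level.

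**Figure D3:**
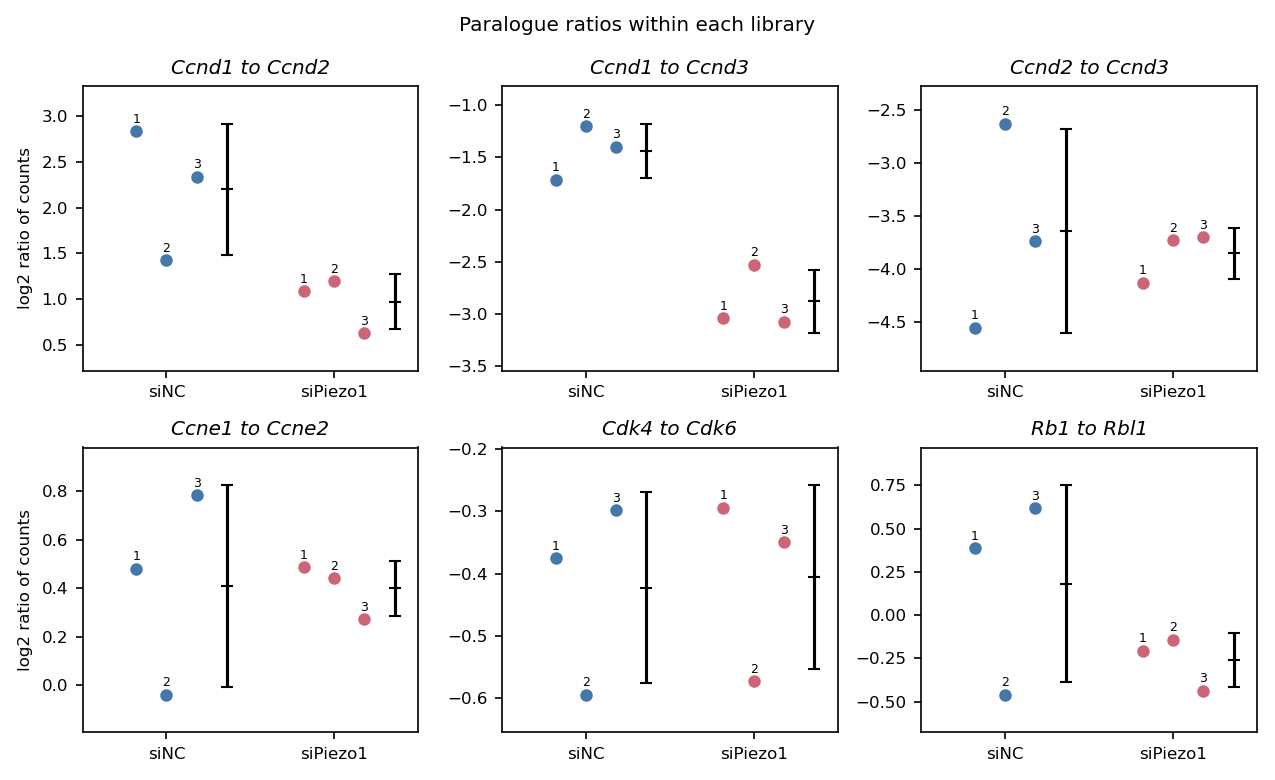
Log2 ratio of the counts of 2 paralogues within each library (vertical axis; each panel has its own range), for 6 pairs, with libraries numbered by replicate and the group mean and SD as a black bar. The siNC and siPiezo1 points are separate for Ccnd1 to Ccnd2 and Ccnd1 to Ccnd3 and overlap in the other 4 panels.

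Both E-type cyclins were highest in siNC 2, and neither separated the groups. Ccne1 (ENSMUSG00000002068), which encodes cyclin E1, stood at 9.81, 22.5 and 11.8 CPM across the controls, against 14.4, 16.3 and 17.2 CPM with siPiezo1. Ccne2 (ENSMUSG00000028212), which encodes cyclin E2, stood at 7.03, 23.1 and 6.83 CPM across the controls, against 10.3, 12.02 and 14.3 CPM with siPiezo1. For both genes the siPiezo1 libraries lay above siNC 1 and 3 and below siNC 2. With all libraries the log2 fold changes were 0.12 ± 0.31 for Ccne1 and -0.02 ± 0.49 for Ccne2 (SE). Without siNC 2 they were 0.56 ± 0.15 and 0.81 ± 0.18 (SE), the latter the largest positive value among the members, and neither passed (edgeR quasi-likelihood, Benjamini-Hochberg adjusted p = 0.130 and 0.0852). Per kb of exon Ccne1 was above Ccne2 in 6 of 6 libraries. Its share of the pair was 63.4 ± 6.73% in siNC and 63.4 ± 1.83% in siPiezo1 (SD, n = 3), and the log2 ratio of the pair differed by -0.01 (exact two-sided permutation test, p = 1.0). The E-type pair overlapped between the groups in its make-up, and siNC 2 was the library with the lowest share of Ccne1, at 56.1%.

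Cdk4 (ENSMUSG00000006728) and Cdk6 (ENSMUSG00000040274) encode the kinase partners of the D-type cyclins. Cdk4 stood at 60.7, 90.4 and 67.3 CPM across the controls, against 79.6, 70.5 and 71.6 CPM with siPiezo1. Cdk6 stood at 78.7, 136 and 82.8 CPM across the controls, against 97.6, 105 and 91.3 CPM with siPiezo1. Both were highest in siNC 2, with every siPiezo1 library above the other controls. Their log2 fold changes were 0.02 ± 0.16 and -0.02 ± 0.21 with all libraries, and 0.20 ± 0.09 and 0.27 ± 0.08 without siNC 2 (SE). Neither passed in either fit. Per kb of exon Cdk4 was above Cdk6 in 6 of 6 libraries, and its share of the pair was 76.2 ± 1.95% in siNC and 76.4 ± 1.86% in siPiezo1 (SD, n = 3). The log2 ratio of Cdk4 to Cdk6 differed by 0.02 (exact two-sided permutation test, p = 0.7). With all libraries both log2 fold changes of these kinases were smaller than their SE, and without siNC 2 both were above 0.

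Cdk2 (ENSMUSG00000025358), which encodes the kinase partner of the E-type cyclins, was among the steadiest members. It stood at 43.0, 53.4 and 36.7 CPM across the controls, against 38.9, 40.9 and 40.8 CPM with siPiezo1. The siPiezo1 libraries lay between siNC 1 and siNC 3. The log2 fold change was -0.14 ± 0.14 with all libraries and 0.01 ± 0.10 without siNC 2 (SE).

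The pocket proteins had log2 fold changes of opposite sign. Rb1 (ENSMUSG00000022105), which encodes the retinoblastoma protein, was the only member with its lowest level in siNC 2. It stood at 44.6, 37.6 and 46.9 CPM across the controls, against 39.5, 44.2 and 39.7 CPM with siPiezo1, with a log2 fold change of -0.06 ± 0.11 with all libraries and -0.16 ± 0.09 without siNC 2 (SE). Rbl1 (ENSMUSG00000027641), which encodes p107, a pocket protein known to be made mainly in cycling cells, stood at 34.1, 51.7 and 30.5 CPM across the controls, against 45.6, 48.7 and 53.7 CPM with siPiezo1. It was the only member whose highest level was in a siPiezo1 library. The log2 fold change was 0.35 ± 0.20 with all libraries (SE, edgeR quasi-likelihood, Benjamini-Hochberg adjusted p = 0.978). Without siNC 2 it was 0.61 ± 0.10 (SE) and passed the threshold (edgeR quasi-likelihood, Benjamini-Hochberg adjusted p = 0.0354), so that Rbl1 rose in that fit. Over all alternatives its adjusted p ran from 0.0354 to 0.9999. The log2 ratio of Rb1 to Rbl1 was 0.18 ± 0.57 in siNC and -0.26 ± 0.15 in siPiezo1 (SD, n = 3; exact two-sided permutation p = 0.4, and 0.8 adjusted over the 6 pairs). In siNC 2 this ratio was -0.46, beyond every siPiezo1 library, and the groups overlapped.

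The 250 bases before the start of each gene were searched for letters of E2F sites (TTTCCCGC, TTTGGCGC, TTTCGCGC or TTTGCCGC), of AP-1 sites (TGACTCA or TGAGTCA), of the cyclic AMP response element (TGACGTCA) and of the E-box bound by MYC (CACGTG), on both strands. RefSeq's promoter table (GRCm38.p6) held entries for 6 members, Ccnd3 (2 starts), Ccne1, Cdk2, Cdk4, Cdk6 and Rbl1. E2F letters were found in 2 of them, Rbl1 and Cdk2, against 1.86% of 32851 promoters. E-box letters were found in 2, Cdk4 and Cdk6, against 6.02%. All of the E2F and E-box letters searched hold CG, and the members' promoters were richer in it than most, with 59.6% to 76.0% GC and 11 to 34 CG pairs, against medians of 52.4% and 6 over all promoters. These shares were not adjusted for that composition. AP-1 letters (4.46% of promoters) and the response element (1.55%) were found in none. Shown are the promoters of Rbl1 and Cdk2, which hold different E2F letters (TTTCGCGC and, in reverse, TTTCCCGC), and of Cdk4, which holds 4 E-boxes. Capitals mark the matches, and each runs 5′ to 3′ on the strand of the gene. The Rbl1 window is chr2:157204535-157204784 (minus strand), that of Cdk2 is chr10:128705052-128705301 (minus strand) and that of Cdk4 is chr10:127063285-127063534 (plus strand).
Rbl1: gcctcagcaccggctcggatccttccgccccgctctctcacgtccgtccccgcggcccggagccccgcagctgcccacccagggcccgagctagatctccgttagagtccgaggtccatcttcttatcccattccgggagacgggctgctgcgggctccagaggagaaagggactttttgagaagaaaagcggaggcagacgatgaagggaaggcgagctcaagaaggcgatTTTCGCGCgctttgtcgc
Cdk2: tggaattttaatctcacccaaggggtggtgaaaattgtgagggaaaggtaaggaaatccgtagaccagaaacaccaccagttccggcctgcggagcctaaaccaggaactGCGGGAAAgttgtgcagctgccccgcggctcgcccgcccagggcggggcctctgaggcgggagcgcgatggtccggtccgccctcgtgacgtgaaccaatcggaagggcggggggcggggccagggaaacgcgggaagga
Cdk4: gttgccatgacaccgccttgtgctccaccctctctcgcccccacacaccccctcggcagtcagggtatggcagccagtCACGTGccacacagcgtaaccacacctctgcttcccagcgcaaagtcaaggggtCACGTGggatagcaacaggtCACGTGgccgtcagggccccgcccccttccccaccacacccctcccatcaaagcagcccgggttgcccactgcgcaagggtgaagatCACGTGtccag
The match in Rbl1 begins 18 bases before the start, and that in Cdk2, in the reverse orientation, 140 bases before it. The matches in Cdk4 begin 172, 118, 98 and 11 bases before the start. Without siNC 2, Rbl1 had a log2 fold change of 0.61 and Cdk2 one of 0.01. A part of the E2F letters in these values was not tested. Myc stood at 2.58, 15.2 and 2.86 CPM across the controls, against 2.06, 3.97 and 2.29 CPM with siPiezo1. It was highest in siNC 2, as were 8 of the 10 members. A part of Myc in these levels was not tested. These matches are descriptions of sequence and were not tested against binding.

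Without siNC 2, with siNC 1 and 3 as the only controls, Ccnd1 was lower and most other members had values above 0. That library was set apart in part by its high S phase genes, and 8 of the 10 members were highest in it. Leaving it out raises the fold changes of these 8 by construction. The same holds for Rbl1, for which it was the highest control. The counts that follow describe the fit without siNC 2 only. In that fit, which tested 16442 genes, 1 member was called higher (Rbl1), against 0.645% of genes, and 1 lower (Ccnd1), against 0.45%, or 2 in either direction, against 1.09%. At an unadjusted p under 0.05 there were 8 of 10 members, against 14.3% of genes. In it 8 members had a log2 fold change above 0 and 2 below, Ccnd1 and Rb1. The median of the 10 was 0.32, while the median of all genes was 0.00 and 50.5% of all genes were above 0. Every siPiezo1 library was above siNC 1 and 3 for 7 members (16.9% of all genes) and below both for 2 (16.4%). For 6 members every siPiezo1 library was in addition below siNC 2, which was so for 7.01% of all genes.

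**Figure D4:**
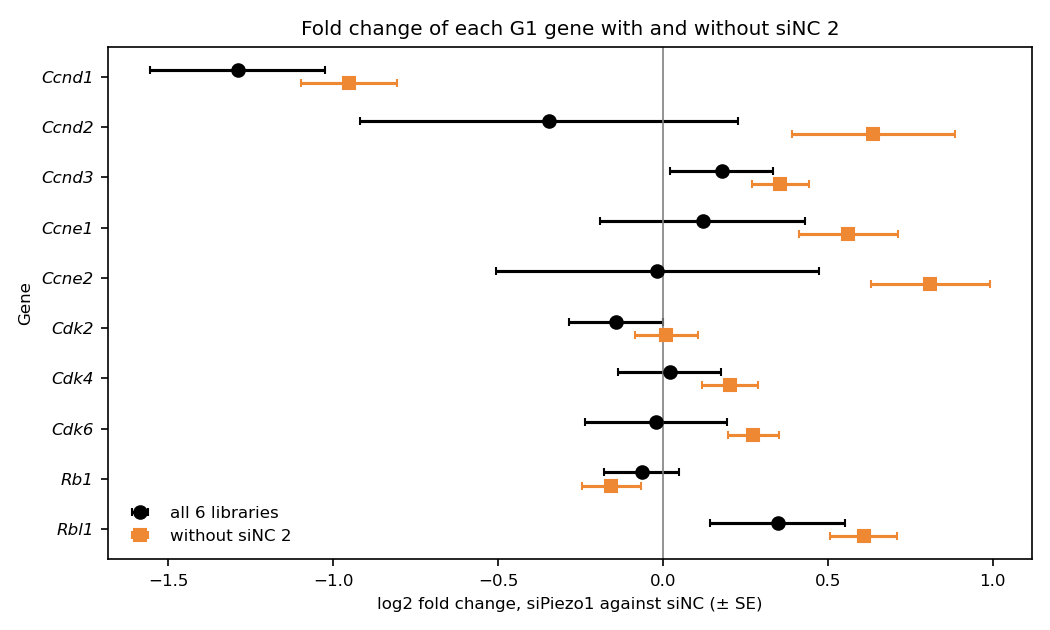
Log2 fold change, siPiezo1 against siNC, with its standard error (horizontal axis) for each gene, from the fit with all 6 libraries (circles) and the fit without siNC 2 (squares). Ccnd1 lies below 0 in both, at -1.29 and -0.95, and 8 of the 10 squares lie above 0.

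The order of the levels per kb of exon, over all 6 libraries, began with Cdk4 at 22.6 ± 3.19 CPM per kb and Ccnd3 at 12.2 ± 1.83 (SD, n = 6). Cdk4 was above Ccnd3, and Ccnd3 above Rbl1, in 6 of 6 libraries. Next came Rbl1 (7.35 ± 1.60), Cdk6 (7.05 ± 1.49), Rb1 (7.00 ± 0.60), Cdk2 (6.80 ± 0.94), Ccne1 (5.76 ± 1.68) and Ccnd1 (5.67 ± 3.22), of which no neighbours differed beyond their spread. Ccne2 followed at 3.51 ± 1.73 CPM per kb, within the spread of Ccnd1, and Ccnd2 was lowest at 0.956 ± 0.61 and below Ccne2 in 6 of 6 libraries. In the siNC means Ccnd1 was the third of the 10, at 8.05 CPM per kb, and in the siPiezo1 means it was the ninth, at 3.30. The third place was that of siNC 2 alone, at 11.4 CPM per kb, since Ccnd1 was the fifth in siNC 1, at 6.18, and the fourth in siNC 3, at 6.54. Rbl1 was the seventh in siNC, at 6.47 CPM per kb, and the third in siPiezo1, at 8.24, where it was the third in each library.

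The genes whose levels followed those of Ccnd1 most closely were sought among 9549 named genes with a mean of at least 5 CPM. Likeness was the root-mean-square difference of the log2(CPM + 0.5) values over the 6 libraries, after each gene's mean was taken away. The nearest was Dab2, an endocytic adaptor, with a difference of 0.14 and levels of 148, 251 and 152 CPM across the controls, against 63.9, 101 and 88.3 CPM with siPiezo1. Gatm, an enzyme of creatine synthesis, was next at 0.17, then Emp1, a membrane protein, at 0.17. Piezo1 itself was the fourth, at 0.21, and Noct, a circadian phosphatase, the fifth, at 0.26. All 5 were highest in siNC 2 and lower in every siPiezo1 library than in any control. They were chosen for likeness to Ccnd1, which has that pattern, so it follows from the choice and is no separate result. Of all genes 28.8% were highest in siNC 2, and 5.65% were lower in every siPiezo1 library than in any control. The likeness is a description of 6 libraries, and it says nothing of shared control.

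**Figure D5:**
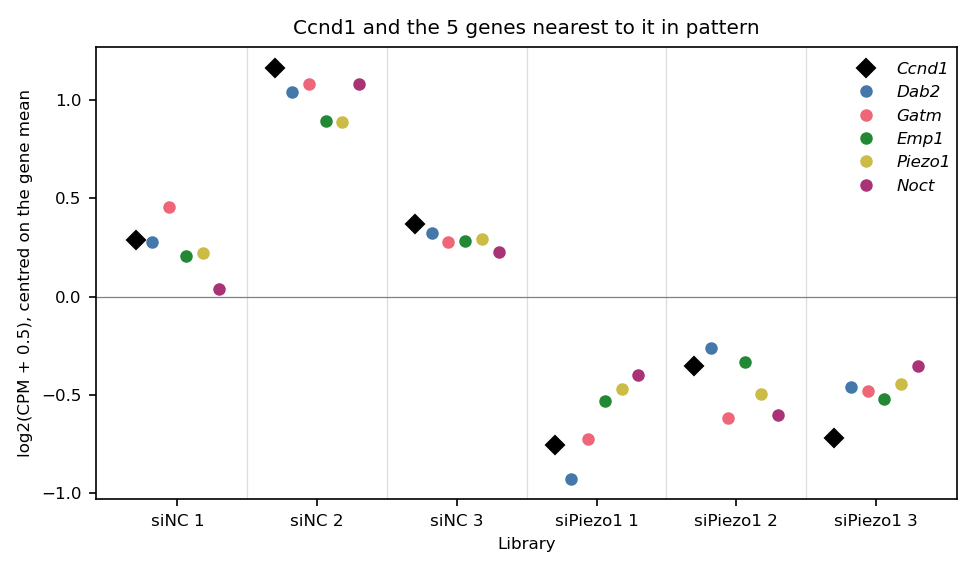
Level of Ccnd1 (diamonds) and of the 5 genes nearest to it in pattern (circles) in each library (horizontal axis), as log2(CPM + 0.5) after each gene's mean over the libraries was taken away (vertical axis). All 6 genes are highest in siNC 2 and below their own mean in each siPiezo1 library, as the 5 were chosen for likeness to Ccnd1.

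Around the members, lists of related genes had few differences past the test. With all 6 libraries the edgeR test called 0 genes of the 9 cell cycle lists, the members included, against 0.00627% of all genes. Without siNC 2 it called Ccnd1 and Rbl1 of the 10 members. It also called Fos, of 26 tested transcription factors known to act on cyclin D genes, and none in the other lists. Of all genes 1.09% were called in that fit. The lists held 4 to 26 tested genes each. The E2F and DP factors with Rbl2 had 3 of 11 genes above 0 and a median log2 fold change of -0.06, or 0.09 without siNC 2. The smallest p among them were those of E2f6 (0.17 ± 0.18) and Tfdp2 (-0.34 ± 0.40, SE). The 20 E2F target genes of S phase had 4 above 0 and a median of -0.09, and without siNC 2 all 20 were above 0 with a median of 0.43. Mybl2, a transcription factor of cycling cells, had -1.07 ± 0.70 and turned to 0.30 ± 0.23 without siNC 2, and Tyms, thymidylate synthase, had -0.50 ± 0.48 and 0.27 ± 0.22 (SE). The S and M phase cyclins had 4 of 4 tested genes above 0 and a median of 0.16, or 0.62 without siNC 2. Ccna2, cyclin A2, stood at 26.0, 58.5 and 23.5 CPM across the controls, against 32.4, 40.5 and 50.2 CPM with siPiezo1, and Ccnb1, cyclin B1, had a log2 fold change of 0.16 ± 0.33 (SE). Of the 20 S phase genes all 20 were highest in siNC 2, and in 12 every siPiezo1 library was above siNC 1 and 3, while in the other 8, Tyms among them, at least 1 was not. For the 4 tested later cyclins siNC 2 was highest and every siPiezo1 library was above siNC 1 and 3. Ccna2 is in both lists. Of all genes 28.8% were highest in siNC 2, and for 16.9% every siPiezo1 library was above siNC 1 and 3. Leaving out siNC 2 raises the fold changes of genes highest in it by construction. None of the E2F and DP factors, S phase genes and later cyclins passed the test in either fit.

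The CDK inhibitors had 6 of 7 genes above 0 and a median of 0.20 (0.24 without siNC 2). Cdkn1a, which encodes p21, was the exception, at 217, 257 and 235 CPM across the controls, against 179, 213 and 192 CPM with siPiezo1 (log2 fold change -0.28 ± 0.10, SE). Cdkn1c, which encodes p57, had 1.03 ± 0.45 (SE) at under 5 CPM throughout. Neither passed. CDK-activating and phosphatase genes had 5 of 9 above 0 and a median of 0.03 (0.32 without siNC 2), with Mnat1 at 0.31 ± 0.16 and Cdc25a at -0.26 ± 0.30 (SE). Genes of cyclin D and E turnover had 4 of 12 above 0 and a median of -0.06 (-0.04 without siNC 2), with Skp2 at -0.23 ± 0.15 and Fbxw8 at -0.10 ± 0.07 (SE). Other cyclins and CDKs had 8 of 21 above 0 and a median of -0.03 (-0.06), with Cdk13 at 0.12 ± 0.08 and Cntd1, under 1 CPM, at -1.54 ± 1.19 (SE).

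Transcription factors known to act on cyclin D genes had 9 of 26 tested genes above 0 and a median of -0.07, with and without siNC 2. Fos, a subunit of AP-1, stood at 64.0, 57.4 and 60.9 CPM across the controls, against 40.2, 43.4 and 40.0 CPM with siPiezo1. Its groups did not overlap and siNC 2 was the lowest control, unlike for Ccnd1. The log2 fold change was -0.56 ± 0.09 with all libraries and -0.60 ± 0.08 without siNC 2 (SE), and it passed in the latter fit (edgeR quasi-likelihood, Benjamini-Hochberg adjusted p = 0.0169). Fosl1, another AP-1 subunit, stood at 5.29 CPM in siNC 2 and under 0.5 CPM in each other library. The AP-1 partner Jun, at 101, 148 and 101 CPM across the controls, against 116, 118 and 110 CPM with siPiezo1, had -0.03 ± 0.16 (SE). Jun was named after its values were seen. So were Myc, Ly6g, Retnlg, the 5 markers at 0 and all macrophage markers named above.

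The counts of some members can hold reads of a neighbour on the opposite strand, since whether counting used the strand is not given in the sources used here. For Ccnd1, 23.4% of exon bases lie opposite exons of LTO1. The level of LTO1 was 13.7 ± 1.96 CPM among controls and 15.6 ± 1.85 CPM with siPiezo1 (SD, n = 3). Its log2 fold change was 0.19 ± 0.16 with all libraries (SE) and 0.09 without siNC 2. The part of LTO1 reads in the Ccnd1 counts was not tested. Tspan31 covers 19.7% of Cdk4 (98.6 ± 3.83 and 104 ± 4.98 CPM), and Ints8 covers 17.4% of Ccne2 (28.3 ± 4.22 and 27.9 ± 2.58 CPM; SD, n = 3). No member matched a paralogue among the members at 90% identity over 150 bases. Cdk6 shared stretches of 150 to 388 bases with 10 other genes. The predicted genes among them held 0 counts in every library. The others held from 261 (Polg2) to 22408 (Rps24) counts a library, against 4780 to 10313 for Cdk6. Whether their reads entered the Cdk6 counts was not tested. The pseudogene Ccnd3-ps, 96.6% identical to Ccnd3 over 417 bases, held at most 4 counts in any library.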

How the data were processed

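RNA-seq of polyadenylated RNA was deposited as 1 table of estimated counts per gene for 6 libraries, which the authors left unnormalized. The submitters' processing notes name cutadapt 1.9, HISAT2 2.0.4, StringTie 1.3.4d, DESeq2, edgeR and GRCm39. Their settings and the strand setting of the counting step were not given in the sources used here. Deposited values are whole numbers with steps of about 4 per fragment, so they were treated as estimated counts, although the design had assumed plain counts. Library totals were 61086684 to 75052745 counts, and identifiers without a symbol held at most 0.00886% of them.

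Genes were filtered with filterByExpr, scaled with TMM and tested with edgeR 4.0.16 (quasi-likelihood, robust) in R 4.3.3, with Benjamini-Hochberg adjustment over 15959 genes and a threshold of 0.05. The SE is the absolute log2 fold change over the square root of F. Ratios carried a prior of 0.5 counts, and exact permutation tests were run with scipy 1.17.1. Lengths, overlaps and transcripts came from GENCODE M21 (GRCm38), which is not the build named for the deposited table, and near copies were sought with BLAST 2.17.0. Alternatives were DESeq2 1.42.0, limma-voom (limma 3.58.1), other scaling and filters, counts divided by 4, a replicate block and each library left out. In data simulated for siPiezo1 against siNC on 15360 genes, the edgeR test called 0% of 1.5-fold, 31.2% of 2-fold and 63.1% of 4-fold changes, and 3.17% of its calls were false. Each gene was simulated independently, so no simulated library stood apart over many genes together, as siNC 2 did. These shares therefore need not hold for the real libraries. The members and lists were chosen with earlier results of these data known. Genes named beside the members are Piezo1, up to 2 tested genes of smallest p in each list, and the 5 genes nearest to Ccnd1 in pattern. Neighbours on the opposite strand and near copies are named from the annotation and the sequence match. Some list genes were named after their values were seen, as said beside them in the text.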

Additional observations from a re-analysis of the deposited data

How the results depend on the processing

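With all 6 libraries 1 gene and 0 members were called. Library totals alone gave 0 genes, the replicate block 0 genes and DESeq2 88 genes, of which 1 was a member, Ccnd1. Leaving out each library in turn gave 0 to 180 genes and 0 to 2 members, the highest of both without siNC 2, and 5 genes without siPiezo1 3. The log2 fold change of Ccnd1 stayed below 0 in every alternative and ran from -1.45 to -0.95 over the left-out libraries, and that of Rbl1 ran from 0.20 to 0.61.

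The replicate numbers are not known to pair the samples: deviations of same-numbered libraries correlated at 0.0296, -0.062 and -0.0861. With the replicate block the log2 fold change of Ccnd1 was -1.24 (adjusted p = 0.997 in edgeR's test), and the Ccnd1 share and both Ccnd1 ratios had an exact p of 0.25, the smallest for 3 pairs. The block reversed Ccnd2 (0.0023), Ccne2 (0.23) and Cdk6 (0.024), and limma-voom reversed Ccne2 (0.17) and Cdk6 (0.019). The cause was not tested.

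Over the left-out libraries the log2 fold change ran from -0.72 to 0.64 for Ccnd2, 0.05 to 0.36 for Ccnd3, -0.10 to 0.56 for Ccne1, -0.31 to 0.81 for Ccne2, -0.26 to 0.0098 for Cdk2, -0.10 to 0.20 for Cdk4, -0.16 to 0.27 for Cdk6 and -0.16 to 0.0013 for Rb1. The difference in log2 ratio ran from -1.62 to -0.91 for Ccnd1 to Ccnd2, -1.62 to -1.32 for Ccnd1 to Ccnd3, -0.67 to 0.29 for Ccnd2 to Ccnd3, -0.23 to 0.18 for Ccne1 to Ccne2, -0.069 to 0.10 for Cdk4 to Cdk6 and -0.76 to -0.22 for Rb1 to Rbl1. The Ccnd1 share differed by -21.4 to -18.2 points, and by -14.6 points with the longest transcript in place of all exons. Ccnd2, with about 62 to 379 fragments a library, had the lowest depth.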
